A study of Mus musculus with 13 samples.

Results

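The immediate early genes Fos, Fosb, Jun, Junb, Egr1, Atf3, Ier2, Nr4a1, Zfp36 and Dusp1, 10 in all, were taken by their symbols from the 22609 genes of each of 2 deposited mouse tables, and all 10 were present in both. RNA was sequenced from E0771 mammary tumours, a transplantable mouse breast cancer, and from visceral fat taken after HFD feeding (HFD is commonly a high-fat diet), all in C57BL/6 mice. For either tissue the hosts were wild-type mice (WT) or mice described as lacking PD-L1, the product of Cd274, in fat only (KO), with 3 WT and 3 KO tumour libraries and 3 WT and 4 KO fat libraries. E0771 tumours were transplanted into either host, so in tumours the label KO describes the host and not the cancer cells. The Cre or promoter behind the deletion, the age and sex of the mice, the diet of the tumour hosts and whether each library was 1 animal are not given in the sources used here.

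Immediate early genes are transcribed within minutes of a growth factor, cytokine, hormone or stress signal, without new protein synthesis, and their short-lived messenger RNAs normally fall back quickly. Fos, Fosb, Jun and Junb encode subunits of the dimeric transcription factor AP-1, Egr1 a zinc finger factor, Atf3 a stress-induced factor of the ATF family, Nr4a1 an orphan nuclear receptor and Ier2 a small nuclear protein. Dusp1 and Zfp36 act as brakes: Dusp1 is a phosphatase that inactivates MAP kinases, and Zfp36 encodes tristetraprolin, which promotes decay of cytokine messenger RNAs. In fat and in tumours these genes are expressed by many cell types, macrophages and fibroblasts among them. In bulk tissue, fewer cells of a type and less RNA per cell cannot be told apart.

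The bases in front of the transcription starts of 5 genes, each of which carries a binding word named below, are shown. The 5 genes were picked by hand, and Fosb and Zfp36, which also carry such words, are not shown. The sequences come from RefSeq on GRCm38.p6, whose promoter table held an entry for 8 of the 10 genes (no entry matched Ier2 or Egr1). Each runs 5′ to 3′ on the strand of the gene, from 250 bases before the RefSeq start to the last base before it, or to base 51 before it for Dusp1. Capitals mark TGACG, the half-site of the cAMP response element, on either strand, the full element TGACGTCA in Dusp1, and TGATGCAA on the reverse strand in Atf3, a word bound by pairs of C/EBP and ATF factors. The windows are chr12:85473640-85473889 on the plus strand for Fos, chr8:84978749-84978998 on the minus strand for Junb and chr1:191183334-191183583 on the minus strand for Atf3. Those of Dusp1 and Nr4a1 are chr17:26508523-26508722 on the minus strand and chr15:101266596-101266845 on the plus strand.
Fos: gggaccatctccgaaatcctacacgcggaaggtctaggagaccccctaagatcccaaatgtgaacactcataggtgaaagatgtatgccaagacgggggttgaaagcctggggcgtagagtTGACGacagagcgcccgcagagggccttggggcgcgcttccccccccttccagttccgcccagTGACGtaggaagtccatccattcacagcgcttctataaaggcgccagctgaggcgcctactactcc
Junb: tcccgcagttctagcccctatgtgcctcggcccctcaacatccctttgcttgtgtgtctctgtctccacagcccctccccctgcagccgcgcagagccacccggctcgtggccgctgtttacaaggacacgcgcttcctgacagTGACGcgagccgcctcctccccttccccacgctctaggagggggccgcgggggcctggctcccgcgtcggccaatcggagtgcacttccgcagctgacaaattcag
Atf3: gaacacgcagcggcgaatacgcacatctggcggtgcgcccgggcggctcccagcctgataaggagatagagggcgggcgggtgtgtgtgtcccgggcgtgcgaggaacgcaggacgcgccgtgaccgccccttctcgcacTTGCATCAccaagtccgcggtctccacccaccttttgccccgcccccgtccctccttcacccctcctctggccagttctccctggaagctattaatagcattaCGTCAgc
Dusp1: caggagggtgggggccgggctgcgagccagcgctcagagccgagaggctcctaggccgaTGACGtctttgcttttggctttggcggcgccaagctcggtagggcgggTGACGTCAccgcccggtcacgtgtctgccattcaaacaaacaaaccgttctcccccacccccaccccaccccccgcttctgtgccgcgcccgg
Nr4a1: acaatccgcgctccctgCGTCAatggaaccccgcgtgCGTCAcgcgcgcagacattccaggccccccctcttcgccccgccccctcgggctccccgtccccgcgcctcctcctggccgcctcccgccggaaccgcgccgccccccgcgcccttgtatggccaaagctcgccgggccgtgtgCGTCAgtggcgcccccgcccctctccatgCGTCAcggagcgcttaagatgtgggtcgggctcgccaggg

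The half-site TGACG lay in the 250 bases before the start of 6 of the 8 genes with an entry (Fos, Fosb, Junb, Atf3, Dusp1 and Nr4a1), against 17.8% of all 32851 mouse windows of that length. In Fos it began 129 and 66 bases before the start, and Nr4a1 held 4 copies. The full element TGACGTCA occurred in Dusp1, 143 to 136 bases before the start, and in 1.55% of all windows; each side of it also counts as a half-site. TGATGCAA occurred in Atf3, 110 to 103 bases before the start, and in 0.791% of windows. The EGR word GCGNGGGCG was found in Fosb, Zfp36 and Nr4a1 and in 4.7% of windows, and the serum response CArG box in Zfp36 and in 1.47%. The AP-1 word TGANTCA was in none of the 8 windows and in 6.75% of all windows. Both strands were searched, and a match is a description of these letters only.

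Sequencing gave 22834259 to 34706555 reads in genes per tumour library and 29362788 to 41534662 per fat library, the latter recovered from the deposited values. Counts of the 10 genes ran from 47 reads (Fosb in a KO fat library) to 12463 reads (Atf3 in a KO fat library). The deleted gene does not separate the fat groups: Cd274 had a mean of 590.2 ± 129 (SD, n = 3) in WT fat and of 543.9 ± 17.6 (SD, n = 4) in KO fat, so the groups are called here by their labels. Its values were 547.5, 521.1, 563.8 and 543.2 in KO fat and 504.1, 738.6 and 527.9 in WT fat. In the tumours it had 2414, 2147 and 1568 normalised reads in KO and 1391, 1688 and 1672 in WT hosts (edgeR adjusted p = 0.717). Tumour values are counts scaled to a common library size (normalised reads), and fat values are the authors' normalised values, which were scaled separately, so levels were not compared between tissues. Nothing in the labels ties libraries to separate animals, so p-values measure only the spread between these libraries.

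In the tumours, all 10 genes had higher means in WT than in KO hosts, by 1.11-fold (Zfp36) to 1.57-fold (Dusp1), and none passed the test over all genes. Their log2 fold changes ran from -0.65 for Dusp1 to -0.15 for Zfp36 with a median of -0.40, beside 0.00 over the 13109 genes tested, of which 49.1% lay below 0. With edgeR's quasi-likelihood test and Benjamini-Hochberg adjustment, 0 of the 10 genes were called at an adjusted p under 0.05, and the same test called 0% of all genes higher and 0% lower. The unadjusted p was under 0.05 for 497 higher and for 408 lower genes, the latter being 3.11% of all genes tested, and 6 of the 10 were among the lower ones. DESeq2, the other tool run, called 47 genes higher and 12 lower (0.0708% of 16958 genes), Dusp1 among the latter. The 3 KO values lay below the 3 WT values for 6 of the 10 genes (Fos, Fosb, Junb, Ier2, Dusp1 and Nr4a1), against 4.93% of all genes. An exact permutation test of 3 libraries against 3 cannot give a p below 0.1.

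**Figure D1:**
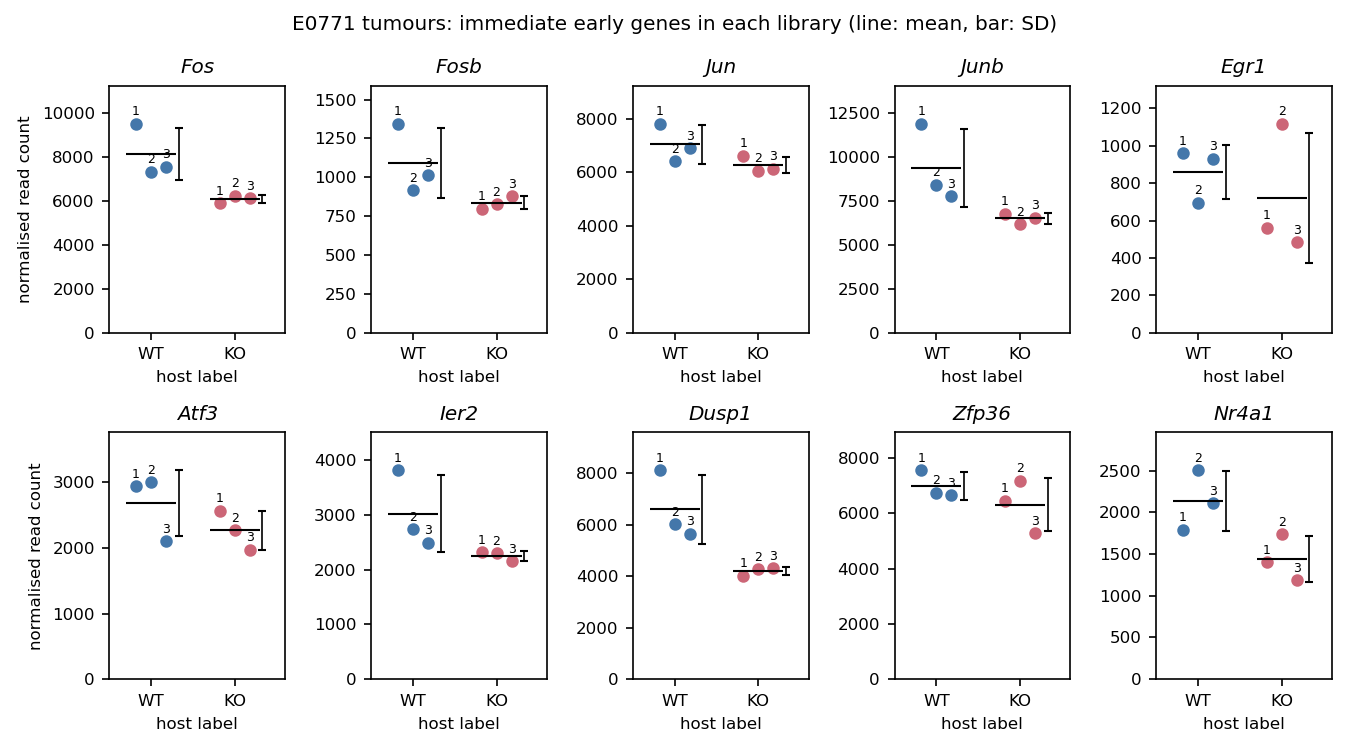
Normalised read count (y axis, from 0) of each gene in the 3 WT and 3 KO tumour libraries (x axis; points carry the library number), with the mean as a line and the SD as a bar. The KO points of Dusp1, Junb, Fos, Fosb, Ier2 and Nr4a1 lie below every WT point, and WT library 1 is the highest of all 6 for 7 genes.

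Dusp1, the MAP kinase phosphatase, had 4014, 4279 and 4321 normalised reads in KO libraries 1 to 3 and 8122, 6014 and 5657 in WT libraries 1 to 3. The KO libraries lay close together and below all WT libraries, of which library 1 was the highest. The means were 4205 ± 166 and 6598 ± 1332 (SD, n = 3 each). The log2 fold change was -0.65 (SE 0.14), with an adjusted p = 0.354 by edgeR's quasi-likelihood test. DESeq2 gave the nearly equal -0.66 with an adjusted p = 0.0101, so whether Dusp1 passes depends on the tool. Without WT library 1 the log2 fold change by edgeR was -0.48 (adjusted p = 0.971), and over the 6 fits that left out 1 library its lowest adjusted p was 0.0735.

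Junb, an AP-1 subunit, had 6764, 6153 and 6536 normalised reads in KO and 11870, 8399 and 7743 in WT libraries. Fos, the partner of the Jun proteins in AP-1, had 5888, 6234 and 6122 in KO and 9510, 7329 and 7549 in WT libraries. Both genes were lower in every KO library than in every WT library, and WT library 1 was the highest. The log2 fold changes were -0.53 (SE 0.15) for Junb and -0.42 (SE 0.12) for Fos, with adjusted p = 0.541 and 0.552 by edgeR. Fosb, a close relative of Fos, had 797.6, 826.9 and 880.1 in KO and 1346, 917.5 and 1014 in WT libraries, a log2 fold change of -0.39 (SE 0.16; edgeR adjusted p = 0.703). Its groups did not overlap either, although KO library 3 and WT library 2 were near each other. Jun, the founding Jun protein, had 6619, 6060 and 6131 in KO and 7816, 6402 and 6889 in WT libraries, with a log2 fold change of -0.17 (SE 0.12; edgeR adjusted p = 0.815). KO library 1 lay above WT library 2, so the groups of Jun overlapped.

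Nr4a1 had 1399, 1738 and 1189 normalised reads in KO and 1793, 2507 and 2107 in WT libraries. All KO values were below all WT values, and here WT library 1 was the lowest of the WT group. The log2 fold change was -0.57 (SE 0.17; edgeR adjusted p = 0.552). Ier2 had 2315, 2304 and 2152 in KO and 3817, 2742 and 2491 in WT libraries, a log2 fold change of -0.42 (SE 0.16; edgeR adjusted p = 0.676) without overlap. Atf3 had 2567, 2267 and 1976 in KO and 2942, 3005 and 2101 in WT libraries, and WT library 3 fell inside the KO range. Its log2 fold change was -0.24 (SE 0.16; edgeR adjusted p = 0.806).

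Egr1 had the largest SE of the 10 genes in the tumours. It had 562.4, 1119 and 482.7 normalised reads in KO and 959.4, 695.1 and 930.6 in WT libraries, so KO library 2 held the highest value of all 6 and KO libraries 1 and 3 the lowest. The log2 fold change was -0.26 (SE 0.27; edgeR adjusted p = 0.873). Zfp36 had 6468, 7184 and 5293 in KO and 7569, 6750 and 6667 in WT libraries, with overlapping groups and a log2 fold change of -0.15 (SE 0.13; edgeR adjusted p = 0.855).

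The direction did not turn for any of the 10 genes in the 6 tumour fits that left out 1 library, but the sizes changed. The log2 fold changes of Egr1 and Zfp36 were both -0.04 without KO library 3, and that of Egr1 was -0.72 without KO library 2. The median size depended most on WT library 1. That library was the highest for 7 genes, and without it the median log2 fold change of the 10 genes was -0.22 instead of -0.40. Averaged over the 10 genes, the libraries deviated from the WT mean by -0.38, -0.26 and -0.49 on the log2 scale in KO and by 0.20, -0.08 and -0.12 in WT hosts. The share of once-placed reads that fell outside genes also separated the groups, at 18.2%, 17.2% and 19.9% in KO and 20.4%, 22.7% and 22.0% in WT libraries, and its part in the differences was not tested. Of the 6 T cell markers listed, 5 were present in the data. Of these, 4 had an unadjusted p under 0.05 by edgeR and higher means in KO tumours, and none passed edgeR or DESeq2. The 5 markers summed to 3406 to 7631 in KO and 2718 to 3738 in WT tumours, ranges that overlap. Macrophage markers summed to 45104 to 62130 in KO and 47078 to 53440 in WT tumours. Of these 6 of 8 were above 0, 2 of them at an unadjusted p under 0.05 by edgeR. Of the neutrophil markers 4 of 6 were above 0 (median log2 fold change 0.61). Epithelial markers summed to 8941 to 9691 in KO and 8840 to 10592 in WT tumours, with 4 of 5 below 0. Fibroblast markers summed to 15815 to 18934 in KO and 14695 to 24629 in WT tumours. Of these 3 of 5 were below 0 and 2 above, 1 of the latter at an unadjusted p under 0.05 by edgeR. Of the tested mesothelial markers 2 of 2 were below 0 (median log2 fold change -0.31). Skeletal muscle, endothelial and B cell markers also leaned lower in KO tumours. No marker of any of these cell types passed edgeR or DESeq2. Of the tested skeletal muscle markers 4 of 4 were below 0, 2 of them at an unadjusted p under 0.05 (median log2 fold change -1.40), with sums of 60.6 to 141.4 in KO and 112.3 to 450.9 in WT tumours. Of the endothelial markers 6 of 7 were below 0, 2 at an unadjusted p under 0.05 (sums of 1742 to 1987 and 1777 to 2466), and of the B cell markers 4 of 4, 1 at an unadjusted p under 0.05 (sums of 179.6 to 262.5 and 277.0 to 306.5). Adipocyte markers summed to 891.3 to 1106 and 887.8 to 962.4, with Adipoq, Lep, Plin1, Cidec and Retn at or near 0. The part of these markers in the differences was not tested.

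In visceral fat the picture was another one: Atf3 and Dusp1 rose in KO hosts, and the other 8 genes did not pass the test. The log2 fold changes, taken on log2(value + 1), ran from -0.88 for Fosb to 3.18 for Atf3, 7 above and 3 below 0, with a median of 0.35 beside 0.00 over the 14455 genes tested. With limma and Benjamini-Hochberg adjustment, 2 of the 10 genes were called higher, against 16.8% of all genes, and 0 lower, against 17.4%, so the count is near the background. At an unadjusted p under 0.05 by limma, 4 of the 10 genes were higher and 0 lower, against 3230 higher and 3338 lower among all 14455 genes. On the recovered reads edgeR called 2 of the 10 higher and 0 lower, against 2356 higher and 2542 lower over all genes. All 4 KO values lay above all 3 WT values for 1 of the 10 genes, Atf3, against 21.6% of all genes. An exact permutation test over the 35 relabellings of these libraries cannot give a p below 0.0286.

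**Figure D2:**
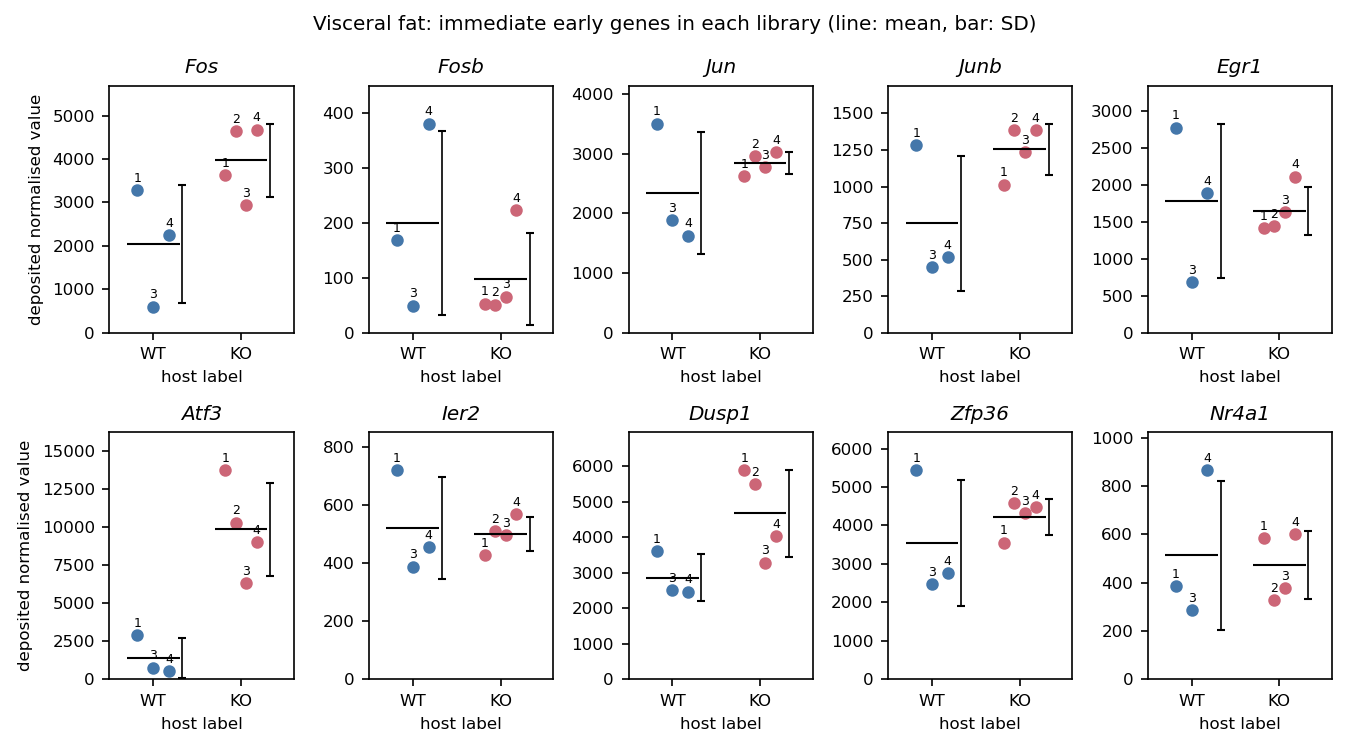
Deposited normalised value (y axis, from 0) of each gene in the 3 WT libraries (columns 1, 3 and 4 of the table) and the 4 KO libraries of visceral fat, with the mean as a line and the SD as a bar. Only the Atf3 groups stand apart, at 6328 to 13757 in KO and 521.7 to 2872 in WT fat, and WT library 1 is the highest of all 7 for Jun, Egr1, Ier2 and Zfp36.

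Atf3, the stress-induced ATF factor, had values of 13757, 10306, 6328 and 9005 in KO libraries 1 to 4 and of 2872, 760.1 and 521.7 in WT libraries 1, 3 and 4. Every KO library was above every WT library, and WT library 1 was well above the other WT libraries. The means were 9849 ± 3087 (SD, n = 4) and 1384 ± 1293 (SD, n = 3), a ratio of 7.11. On the log2 scale the difference was 3.18 (SE 0.53), or 9.07-fold with a 95% interval of 3.91 to 21.0, with an adjusted p = 0.00321 by limma. The two-sided exact permutation test gave p = 0.0286, the smallest it can give here. Atf3 passed in all 7 fits that left out 1 library, with log2 fold changes of 2.68 (without WT library 4) to 3.91 (without WT library 1), and with edgeR on the recovered reads (2.84, adjusted p = 0.00847).

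Dusp1 had values of 5878, 5486, 3278 and 4024 in KO and of 3613, 2500 and 2462 in WT fat. KO libraries 1, 2 and 4 were above all WT libraries, while KO library 3 lay below WT library 1. The means were 4666 ± 1222 (SD, n = 4) and 2859 ± 654 (SD, n = 3). The difference was 0.69 on the log2 scale (SE 0.23), or 1.61-fold with a 95% interval of 1.12 to 2.33, and just passed limma's test with an adjusted p = 0.048. The two-sided exact permutation test gave p = 0.114. The call was lost in 5 of the 7 fits that left out 1 library: the adjusted p by limma was 0.0954, 0.119 and 0.0694 without KO library 1, 2 or 4, and 0.157 and 0.129 without WT library 3 or 4.

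Fos and Junb came next in fat, and neither passed. Fos had values of 3634, 4650, 2940 and 4674 in KO and of 3288, 599.7 and 2242 in WT fat, where WT library 3 was far below the rest. Its log2 fold change was 1.25 (SE 0.51; limma adjusted p = 0.0889), and 0.52 without WT library 3 (limma adjusted p = 0.167). Junb had 1013, 1387, 1234 and 1384 in KO and 1282, 448 and 516.6 in WT fat, with WT library 1 inside the KO range. Its log2 fold change was 0.90 (SE 0.33; limma adjusted p = 0.0674).

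Jun and Zfp36 followed one pattern, with KO libraries close together and WT libraries on both sides of them. Jun had 2621, 2961, 2769 and 3023 in KO and 3501, 1879 and 1625 in WT fat (log2 fold change 0.37, SE 0.24; limma adjusted p = 0.265). Zfp36 had 3548, 4574, 4315 and 4473 in KO and 5441, 2471 and 2751 in WT fat (0.34, SE 0.26; limma adjusted p = 0.34). In both, WT library 1 exceeded all KO libraries and the other WT libraries lay below them. Without WT library 1, 6 of the 10 genes were called higher in KO fat by limma: Atf3 at 3.91, Fos at 1.75, Junb at 1.37, Dusp1 at 0.87, Jun at 0.70 and Zfp36 at 0.69 on the log2 scale. That fit called 2691 of all genes higher, the most of any fat fit, beside 2430 in the limma fit with all libraries. Leaving out any other library gave 1 or 2 of the 10 genes called higher.

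Egr1, Ier2 and Nr4a1 had log2 fold changes near 0 in fat. Egr1 had 1417, 1440, 1626 and 2109 in KO and 2773, 685.8 and 1886 in WT fat (0.09, SE 0.41; limma adjusted p = 0.89). Ier2 had 427.2, 509.2, 495.7 and 567.4 in KO and 720, 387.4 and 453.7 in WT fat (-0.01, SE 0.22; limma adjusted p = 0.968). Nr4a1 had 585, 326.9, 377.7 and 601.6 in KO and 384.5, 286.6 and 866.1 in WT fat (0.00, SE 0.38; limma adjusted p = 0.998). For these the WT values spread on both sides of most or all KO values. The 95% intervals of the fold were 0.552 to 2.05 for Egr1, 0.703 to 1.40 for Ier2 and 0.545 to 1.83 for Nr4a1. Fosb was the lowest of the 10 genes, with 52.99, 50.7, 65.37 and 223.7 in KO and 168.6, 48.91 and 381.5 in WT fat (-0.88, SE 0.73; limma adjusted p = 0.379). One library in each group, KO 4 and WT 4, was far above the group's lowest. The log2 fold change of Fosb was -1.66 without WT library 3 and -0.20 without WT library 4, with limma adjusted p = 0.104 and 0.856.

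The WT fat libraries differed among themselves across the 10 genes. WT library 3 held the lowest value of all 7 for 7 genes and WT library 4 for the other 3, while WT library 1 held the highest for 4. The mean deviation from the WT mean over the 10 genes was 0.65, -0.71 and 0.06 on the log2 scale in WT libraries 1, 3 and 4 and 0.54, 0.56, 0.39 and 0.87 in KO libraries 1 to 4, so WT library 1 lay inside the KO range. Markers of several other cell types moved strongly between the fat groups. All 8 macrophage markers rose (limma), with summed values of 44184 to 127591 in WT and 223504 to 323605 in KO fat. All 8 adipocyte markers fell, from 862289 to 882057 down to 265427 to 415655, and all 8 endothelial markers fell, from 48838 to 63034 down to 20743 to 34597. Of the 5 fibroblast markers 2 rose, with sums of 177623 to 341895 in WT and 365210 to 512567 in KO fat. Of the 5 mesothelial markers 4 fell, with sums of 4312 to 7831 in WT and 2343 to 4451 in KO fat. Of the tested T cell and neutrophil markers 1 of 5 each rose, and of the tested skeletal muscle markers 1 of 2 fell. Of the 4 epithelial and 4 B cell markers tested, 0 passed limma. The 4 testis and epididymis markers summed to 34.03 to 455.1 in WT and 1.008 to 11.04 in KO fat, with Crisp1 at 0 in each WT library. The part of these cell types in the values of Atf3, Dusp1 and the other genes was not tested.

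**Figure D3:**
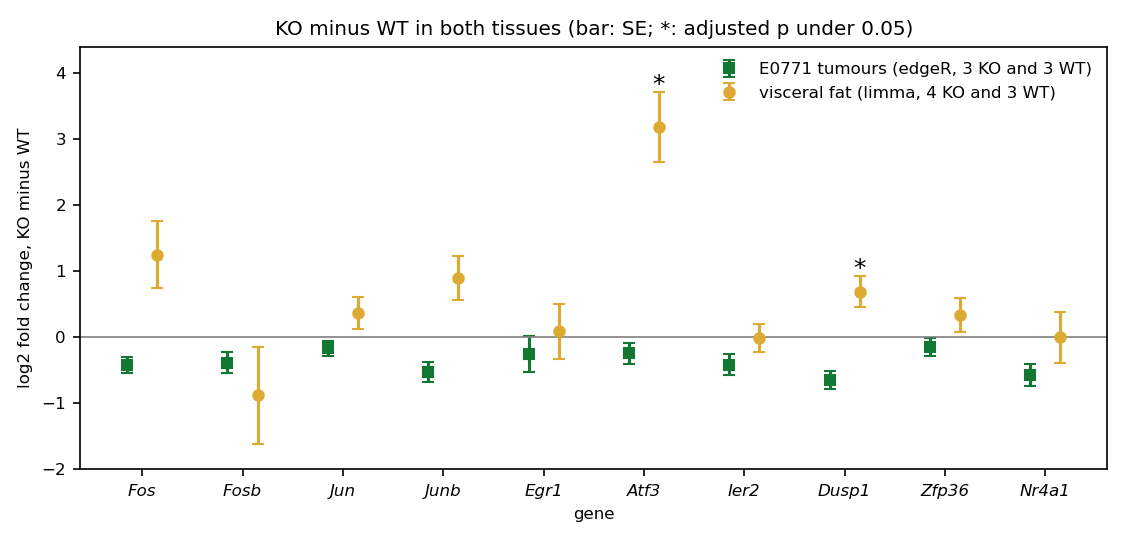
Log2 fold change, KO minus WT (y axis), of each gene in tumours (squares, edgeR, 3 KO and 3 WT libraries) and visceral fat (circles, limma, 4 KO and 3 WT libraries), with the SE as a bar and an asterisk where the adjusted p was under 0.05. All squares lie below 0, from -0.65 to -0.15, and the circles spread from -0.88 to 3.18 with asterisks at Atf3 and Dusp1.

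The KO minus WT difference of each gene was compared between the tissues by exchanging KO and WT labels inside a tissue in all 700 ways (exact permutation test, two-sided, 10 genes, p not adjusted). Differences here are those of mean log2(normalised value + 1). Exchanging labels assumes that KO and WT do not differ in either tissue. A difference in 1 tissue alone can therefore give a small p, and the p does not test whether the 2 differences are equal. The test was run for the 10 genes only, so no share over all genes stands beside its counts. In fat limma called 16.8% of all genes higher and 17.4% lower, while in tumours edgeR called 0% either way. In this exact permutation test the fat difference exceeded the tumour difference by 3.41 for Atf3 (p = 0.00429), by 1.66 for Fos (p = 0.00286), by 1.40 for Junb (p = 0.00714) and by 1.32 for Dusp1 (p = 0.00571). These 4 genes kept an exact permutation p under 0.05 in all 13 settings that left out 1 library, where the highest p was 0.015, 0.01, 0.035 and 0.01 in the same order. Their sizes over these settings ran from 2.91 to 4.14 for Atf3, from 0.93 to 2.16 for Fos, from 1.11 to 1.87 for Junb and from 1.16 to 1.5 for Dusp1. The 0.93 of Fos was without fat WT library 3, and the highest size of each gene was without fat WT library 1. For the other 6 genes the p was above 0.1, from 0.119 for Jun (0.53) to 0.617 for Fosb (-0.51). Of these, Jun, Ier2 and Zfp36 reached an exact permutation p of 0.00667, 0.0133 and 0.0133 without fat WT library 1, and Nr4a1 reached 0.0267 without fat WT library 4.

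**Figure D4:**
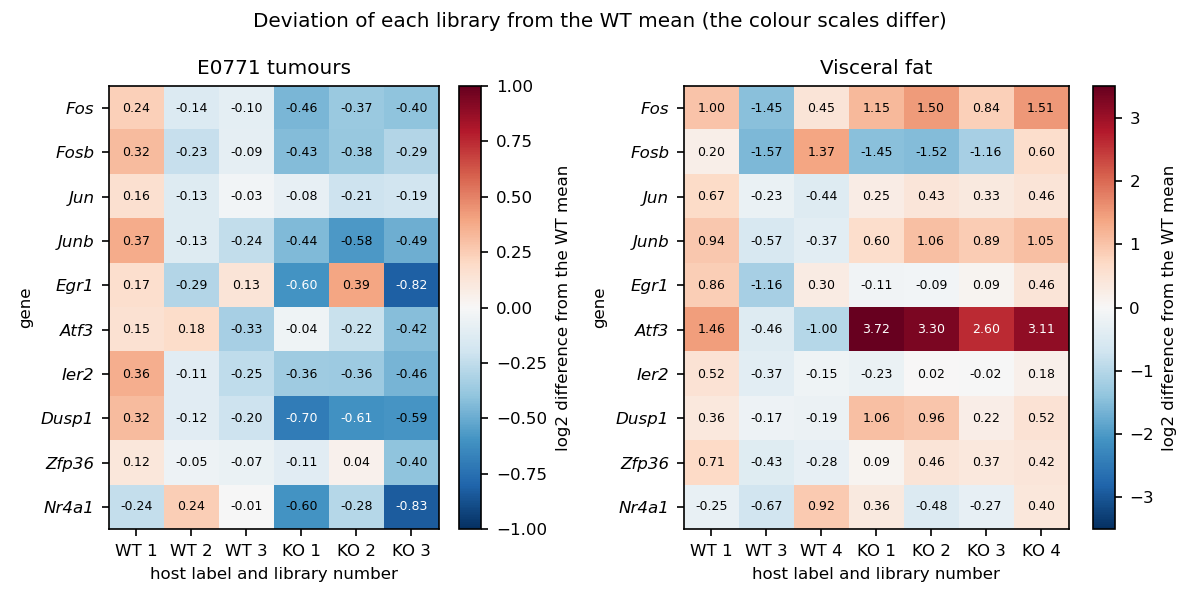
Log2 difference of each library (columns) from the WT mean of its tissue for each gene (rows), tumours at left and visceral fat at right, with a colour scale to 1 in tumours and to 3.5 in fat. The KO tumour columns are mostly blue while the WT 1 column is mostly red, and in fat the Atf3 row is red in all 4 KO columns and the WT 3 column is blue throughout.

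The 10 genes varied together within groups in part. Over the deviations of each library from its own group mean, 37 of 45 gene pairs had a positive Pearson correlation in tumours (n = 6 libraries, median 0.42) and 37 of 45 in fat (n = 7, median 0.54). Fos and Fosb were the closest pair in tumours (0.966) and Junb and Zfp36 in fat (0.998). Fosb and Nr4a1 were the most opposed in tumours (-0.72), and Jun and Nr4a1 in fat (-0.37). These are descriptions over few libraries that share their depth and normalisation, and no share over pairs of other genes stands beside them. The genes outside the 10 whose deviations were most like the mean of the 10 were Clec4a1, 1300014I06Rik, Top1mt, Aes and Tnfaip8l1 in tumours (r of 0.993 to 1.000 among 11440 genes). In fat they were Rasa4, Abcb4, Plxdc1, Pisd and Fzd7 (r of 0.954 to 0.987 among 12703 genes). Picking the highest of so many genes over 6 or 7 libraries can by itself give an r this high. These names therefore show no tie to the 10 genes.

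Levels of different genes were compared per length, as reads per kilobase of annotated exon scaled to the gene reads of the library (RPKM). In WT tumours Junb (139, range 116 to 175) and Fos (118, 106 to 137) were highest and overlapped. Jun (75.4), Zfp36 (68.9), Dusp1 (68.1) and Ier2 (67.7) followed with overlapping ranges, then Atf3 (42.5), Nr4a1 (20.8), Egr1 (6.57) and Fosb (5.98), of which Egr1 and Fosb overlapped. In KO tumours the order was the same except that Ier2 (50.9) stood above Dusp1 (43.6), with ranges that did not overlap. In WT fat Zfp36 (29.6), Dusp1 (25.1), Fos (25.1), Jun (21.2) and Atf3 (18.4, 7.26 to 37.3) had overlapping ranges. Egr1 (11.5), Ier2 (9.93), Junb (9.38) and Nr4a1 (4.30) followed, each overlapping its neighbours in the order, and Fosb (0.94) lay below the range of Nr4a1. In KO fat Atf3 (142, 92.6 to 197) was the highest of the 10 and stood apart from the next, Fos (52.5, 39.4 to 62.6). Dusp1 (43.7), Zfp36 (37.9) and Jun (27.7) came after Fos, of which Jun lay below the range of Zfp36. Junb (17.0), Egr1 (11.5) and Ier2 (10.2) were next, each overlapping its neighbour, then Nr4a1 (4.20) and Fosb (0.492), which stood apart from each other. These per-length levels include any reads of genes on the other strand that overlap the exons, namely Junos for Jun, Prdx2 for Junb, Ergic1 for Dusp1 and Gm44710 for Zfp36, since the strand setting of the counting is not given in the sources used here.

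By GENCODE M21 (GRCm38, the same assembly as mm10), Fos lies at chr12:85473890-85477273, Fosb at chr7:19302696-19310051, Jun at chr4:95049034-95052222 and Junb at chr8:84974484-84978718. Atf3 lies at chr1:191170296-191218039, Ier2 at chr8:84661331-84662852, Dusp1 at chr17:26505590-26562128, Zfp36 at chr7:28376784-28380253 and Nr4a1 at chr15:101254269-101274795. The spans of Atf3, Dusp1 and Nr4a1 include transcripts that start further upstream, so the printed windows of these genes lie inside their spans.

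Lists of related genes were described in the same fits, and their counts in fat stand beside 16.8% of all genes called higher and 17.4% called lower. The macrophage and adipocyte markers given above differ between the same fat libraries, and their part in these counts was not tested. Of 23 tested genes among 24 other AP-1 and immediate early transcription factors, 7 rose in KO fat and 0 fell (median 0.35). Egr2, a relative of Egr1, went from 448.8 ± 327 (SD, n = 3) in WT to 2056 ± 139 (SD, n = 4) in KO fat, a log2 fold change of 2.43 (SE 0.38; limma adjusted p = 0.00256). Fosl1, which encodes the AP-1 subunit Fra-1, rose by 2.20 (SE 0.55; limma adjusted p = 0.0165), and the others were Egr3 (1.37), Myc (1.04), Jund (0.99), Klf10 (0.58) and Klf6 (0.56). Without WT fat library 3 the count was 3. In tumours 0 of these passed edgeR, and the median was -0.01. DESeq2 called 1 lower, and an unadjusted p under 0.05 was reached by 3 with lower KO values and by 0 with higher ones. Cebpb, which encodes a C/EBP factor, had a log2 fold change of -0.75 (edgeR adjusted p = 0.511; DESeq2 adjusted p = 0.0482). Jund, another Jun gene, had -0.70 (edgeR adjusted p = 0.667).

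Of 20 immediate early genes that are not transcription factors, 9 rose and 1 fell in KO fat (median 0.43). Arc, a cytoskeletal protein known from neurons, rose by 1.85 (SE 0.35; limma adjusted p = 0.00511) and Plk2, a polo-like kinase, by 1.71 (SE 0.24; limma adjusted p = 0.00177). Tob1, an antiproliferative protein, fell by 0.85 on the log2 scale (SE 0.18; limma adjusted p = 0.0084). The count of 9 was 5 without KO library 2 or without WT library 3. In tumours 0 passed edgeR or DESeq2 and 1 in each direction had an unadjusted p under 0.05, with a median of -0.03. These were Ppp1r15a, a phosphatase subunit of the stress response (-0.37; edgeR adjusted p = 0.646), and Ptgs2, the inducible cyclooxygenase (1.28; edgeR adjusted p = 0.652).

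Among 15 other dual-specificity phosphatases and feedback inhibitors of receptor kinases, 4 rose and 0 fell in KO fat, and the median was -0.13. Dusp5, a nuclear phosphatase of ERK, rose by 1.91 (SE 0.40; limma adjusted p = 0.0082) and Spred1, an inhibitor of Ras signalling, by 1.16 (SE 0.23; limma adjusted p = 0.00602). In tumours 0 passed edgeR and 0 had an unadjusted p under 0.05, with DESeq2 also at 0. Dusp4 was at -0.38 (edgeR adjusted p = 0.73) and Dusp10 at 0.27 (edgeR adjusted p = 0.779), beside -0.65 for Dusp1.

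Of 10 tested messenger RNAs known as targets of tristetraprolin, 4 rose and 0 fell in KO fat (median 0.43), while Zfp36 itself did not pass. Ccl3, a chemokine, rose by 2.99 (SE 0.53; limma adjusted p = 0.00409) and Il10, an anti-inflammatory cytokine, by 2.46 (SE 0.50; limma adjusted p = 0.00686). The count was 2 without KO library 1, 2 or 4, without WT library 3 and with edgeR on the recovered reads. In tumours 0 of 12 passed edgeR or DESeq2 and 1, Ptgs2, had an unadjusted p under 0.05, with a median of 0.37 beside 0.00 over all genes; Ccl3 was at 0.50 (edgeR adjusted p = 0.796).

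Of 13 inhibitors of NF-kappaB and cytokine signalling, 3 rose and 0 fell in KO fat (median 0.30). Zc3h12a, an endonuclease that degrades cytokine messenger RNAs, rose by 0.72 (SE 0.23; limma adjusted p = 0.044) and Zfp36l2, a relative of Zfp36, by 0.70 (SE 0.18; limma adjusted p = 0.0203). The count was 1 without KO library 4 or WT library 3 and 5 without WT library 1. Among 24 MAP kinase pathway genes and partners of serum response factor, which act upstream of the immediate early genes, 3 rose and 4 fell in KO fat (median 0.08). Rps6ka1, a kinase activated by ERK, rose by 1.21 (SE 0.25; limma adjusted p = 0.00753), and Mkl1, a coactivator of serum response factor, by 1.04 (SE 0.24; limma adjusted p = 0.0118). Rps6ka3, a relative of Rps6ka1, fell by 0.80 on the log2 scale (SE 0.18; limma adjusted p = 0.00945). The count that fell was 2 without KO library 2, 3 or 4 or WT library 3 or 4.

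Heat shock and glucocorticoid-induced genes were included as other quickly induced sets. Of 12 heat shock genes, 0 rose and 2 fell in KO fat (median -0.06), Hspb1 by 1.28 (SE 0.24; limma adjusted p = 0.00493) and Hspd1 by 0.46 (SE 0.12; limma adjusted p = 0.0192). The count that fell was 1 without KO library 4 or WT library 3, and without WT library 1 the count that rose was 2. Of 10 glucocorticoid-induced genes, 1 rose in KO fat, the kinase Sgk1 at 0.83 (SE 0.12; limma adjusted p = 0.00203), and 2 rose without KO library 1 or WT library 1. In tumours 0 genes of the NF-kappaB, MAP kinase, heat shock and glucocorticoid lists passed edgeR or DESeq2. At an unadjusted p under 0.05 there were 1 higher, Rps6ka1 (0.37; edgeR adjusted p = 0.676), and 2 lower, Hspa1b (-1.12; edgeR adjusted p = 0.552) and Dnajb1 (-0.27; edgeR adjusted p = 0.703). In fat, the lists with 0 genes that fell had 1 lower gene (other transcription factors), 0 (phosphatases), 0 (tristetraprolin targets), 1 (NF-kappaB) and 1 (glucocorticoid) at an unadjusted p under 0.05, and edgeR on the recovered reads called 1 of these lower, in the NF-kappaB list. Hspa1b shares nearly all its sequence with Hspa1a, so reads may be divided between them. Among the other genes of smallest p, Zfp36l2 was at -0.22, Nfkbiz at 0.25 and Creb1 at 0.26 in tumours (edgeR adjusted p = 0.759, 0.844 and 0.757). Mt1, a metallothionein, was at -0.22 and Klf9 at -0.26 (edgeR adjusted p = 0.757 and 0.809).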

How the data were processed

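RNA was taken up in Trizol and libraries were made with a stranded Illumina mRNA kit, per the labels' protocols. The deposited tumour table holds unnormalised read counts by gene symbol. The deposited fat table holds a signal per gene, counts divided by 1 size factor per library: 117220 of 117220 values above 0 (100%) were whole multiples of the library's step within 0.001. CASAVA, TopHat, DESeq2 and mm10 are named per the submitters' processing notes. Their roles, the counting tool, the annotation and the strand setting are not given in the sources used here. The 5 summary rows naming no gene, 66.7% to 72.2% of tumour entries, stayed out.

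The software was R 4.3.3. For the tumours, edgeR 4.0.16 fitted its quasi-likelihood model to the counts of all genes (TMM, filterByExpr). For fat, limma 3.58.1 was run with a mean-variance trend on log2(value + 1), over genes at 10 or more in at least 3 libraries. That scale understates changes of low genes. Alternatives were DESeq2 1.42.0, other scalings, filters and pseudocounts, edgeR on recovered fat reads, and leaving out each library. Differences are KO minus WT, p values were adjusted by Benjamini-Hochberg with a threshold of 0.05, and tests were two-sided. Libraries of a group differed beyond sampling noise in every pair (chi-square per degree of freedom of 24.2 or more). Fat WT columns are numbered 1, 3 and 4 and labels 1, 2 and 3, so these columns are known by group only.

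The 10 genes and the lists were chosen with earlier results of these data known, and the promoter words after the values were seen. All 10 genes were named, and of each list up to 2 largest rises and 2 largest falls past the threshold, otherwise the 2 of smallest p. The result of 1 gene so named is not reported here. Some genes sit in 2 lists (Ptgs2, Sgk1, Ier3, Per1, Cebpd and Srf). The genes most like the 10 were the 5 with a mean of 50 or more and the highest Pearson correlation with their mean, within groups. Sequences are RefSeq's, and positions are GENCODE M21's.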

Additional observations from a re-analysis of the deposited data

Results flagged for a closer look

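The exact permutation test of the fat less tumour difference gave a p under 0.05 for 4 of the 10 genes. The fat difference was larger by 1.66 on the log2 scale for Fos, 1.40 for Junb, 3.41 for Atf3 and 1.32 for Dusp1. The test assumes that KO and WT do not differ in either tissue, so a difference in 1 tissue alone can give such a p. Other genes were not put through this test, so whether 4 of 10 differs from the share over all genes is not known. Limma called 16.8% of all genes higher in KO fat, and edgeR called 0% in KO tumours. Without fat WT library 3 the difference for Fos was 0.93, and without fat WT library 1 those for Fos and Atf3 were 2.16 and 4.14. For each of the 4 genes the tumour mean was lower and the fat mean higher in KO hosts. The macrophage and adipocyte markers of fat differ between hosts as given above. In the tumours 4 of 5 T cell markers were higher in KO hosts at an unadjusted p under 0.05 by edgeR. None of these passed edgeR or DESeq2. The part of all these markers in the differences between tissues was not tested.

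Fosb in KO fat has 1 library far from the others. KO library 4 was at 223.7 and KO libraries 1 to 3 at 50.7 to 65.37. On log2(value + 1) the gap to the nearest other library was 0.83 of the group's whole range. The 10 groups of 4 libraries, 1 per gene, were examined in this way, and chance flags about 1 in 20 such groups.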

How the results depend on the processing

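In tumours, all 60 log2 fold changes of the 10 genes in fits that left out 1 library kept their direction and their side of the threshold. So did 49 of 50 under other settings, the exception being Dusp1, called lower by DESeq2 (1 of the 10 genes). DESeq2 called 47 genes higher and 12 lower, and edgeR without a filter 21 and 1. Leaving out 1 library gave 0 to 10 genes higher and 0 to 11 lower, and a median over the 10 genes of -0.46 to -0.22. Same-numbered tumours do not deviate together (r of -0.22, 0.012 and -0.22 over genes), so the numbers were not taken as pairs. With the replicate block edgeR called 0 genes, and Dusp1 was at -0.63 (adjusted p = 0.552). No paired analysis was possible in fat because the WT columns and labels are numbered differently.

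In fat, 54 of 70 fold changes without 1 library and 56 of 60 under other settings stayed on the same side. Called genes ran from 1575 to 2691 higher and 1490 to 2567 lower, both lowest without WT library 3, and 1 to 6 of the 10 genes were called higher. Dusp1 lost its call without the filter (limma adjusted p = 0.0548) and without the trend (0.0711), leaving 1 of the 10 genes called. Genes near 0 changed sign: Egr1 was -0.11 with edgeR on recovered reads and -0.49 to 0.52 without 1 library, Ier2 -0.20 to 0.25, and Nr4a1 0.0036 after TMM rescaling and -0.34 to 0.46. The fat less tumour difference ran from -0.15 to 0.86 for Egr1 and from -1.30 to 0.17 for Fosb. The small number of libraries, 3 or 4 a group, limits the precision. The causes were not tested.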
